A study of Mus musculus with 42 samples.

Results

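The comparison set the 3 libraries labelled KO and treated with LPS for 2 h against the 3 libraries labelled WT and treated with LPS for 2 h, which are 6 of the 42 libraries of the series. They were chosen by their column names in the deposited count table, without use of any measured value. The series is bulk RNA-seq of bone marrow-derived macrophages (BMDMs), cells grown from mouse bone marrow in medium conditioned by L929 fibroblasts, a source of macrophage growth factor. Each genotype was sampled untreated at 0 h and after 2 h or 24 h in control medium, with the saturated fatty acid palmitate or with lipopolysaccharide (LPS), with 3 libraries in each of the 14 groups. KO mice came from a cross of C57BL/6 mice with a floxed Irf5 gene and mice with Cre recombinase driven from the Lyz2 (LysM) locus. How the WT mice were bred is not given in the sources used here. The model therefore removes Irf5 only in cells that express Lyz2 and only as far as the recombinase acts, and the allele it uses lies in Lyz2 itself. Per the study's methods the mice were young adult males. It is not given whether the 3 libraries of a group came from separate mice or cultures. The p-values therefore measure only the spread between libraries of a group, estimated over all 42 libraries, which may be technical.

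IRF5 is a transcription factor of the interferon regulatory factor family. In macrophages LPS, a component of the outer membrane of Gram-negative bacteria, binds TLR4 with CD14 and MD-2 and signals through the adaptor MyD88 to NF-kappaB and AP-1 and through TRIF to IRF3 and type I interferon. IRF5 is known to act downstream of MyD88 and to promote inflammatory cytokine genes such as Tnf, Il6 and Il12b. Early after LPS the primary response genes are at or near their peak, which places the comparison in the phase when cytokine and chemokine transcripts are abundant.

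The targeted gene did not separate the genotypes in the direction of the labels. Irf5 (chromosome 6, 29526625 to 29541871, plus strand, mm10) stood at 430.5, 397 and 407 CPM in the KO libraries and 389, 377 and 373 CPM in the WT libraries. Each KO library was above each WT library, and the difference was small (log2 fold change 0.12 ± 0.06, adjusted p = 0.42, n = 3 per genotype). In the other 6 conditions the KO mean was above the WT mean as well, and Irf5 was called higher in KO in 4 of them, at 0 h (log2 fold change 0.47, adjusted p = 9.1e-08), after 2 h in control medium (0.26, adjusted p = 0.019), after 24 h with palmitate (0.31, adjusted p = 0.0027) and after 24 h with LPS (0.47, adjusted p = 1.6e-07). CPM are counts relative to library size after TMM scaling, and adjusted p-values are Benjamini-Hochberg values over all 11624 genes tested. Fold changes are given on the log2 scale, and the value after ± of a fold change is an approximate standard error. It is the absolute log2 fold change divided by the square root of edgeR's F statistic. Counts over a whole gene also take in reads outside any floxed exons, and which exons were floxed is not given in the sources used here, so the Irf5 count alone cannot show whether the gene was recombined. Because of this, KO and WT below mean libraries labelled as such. Tnpo3, which overlaps the end of Irf5 on the other strand, stood at 60.4, 60.6 and 72.01 CPM in the KO libraries and 60.5, 66.4 and 54.2 CPM in the WT libraries (log2 fold change 0.10 ± 0.10, adjusted p = 0.73). Lyz2, the gene that holds the Cre allele, did separate the genotypes, at 5247, 5014 and 5663 CPM in the KO libraries and 8604, 9578 and 8406 CPM in the WT libraries. All 3 KO libraries were below all 3 WT libraries (log2 fold change -0.74 ± 0.09, adjusted p = 2.1e-06), a 1.67-fold lower level.

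The 6 libraries held 2848793 to 6003042 counts (2848793 to 7743442 over the 42). The shallowest was KO library 1, which also had the lowest share of counts in ribosomal protein genes of all 42 libraries, at 1.63%, against 2.04% to 2.18% in the other 5. KO library 2 held collagen RNA that the other 5 libraries nearly lacked: Col1a1 was at 92.6 CPM in it, against 0.759 and 0.865 CPM in KO libraries 1 and 3 and at most 0.358 CPM in WT libraries. The 9 fibroblast and stromal markers summed to 199 CPM in KO library 2, where Col1a2 was at 38.5, Sparc at 37.3, Col3a1 at 20.1, Pdgfrb at 7.29, Cxcl12 at 1.82 and Pdgfra at 1.01 CPM, while Dcn and Lum were at 0 in all 6 libraries. The lowest sum in KO libraries was 3.42 CPM, and the sums in WT libraries were 1.49 to 2.504 CPM. The 5 of these genes that were tested had positive log2 fold changes, with a median of 5.42, and none was called. Against the stated male sex, Xist, which is expressed from the inactive X chromosome of female cells, stood at 339 to 609 CPM in the 6 libraries, and the Y-linked genes Ddx3y, Eif2s3y, Kdm5d and Uty were at 0 in all 42 libraries, of both genotypes. What this means for the labels was not tested. The 12 macrophage markers were all detected, so the markers of the labelled cell type were present in both genotypes. Adgre1 (F4/80) stood at 1345, 1289 and 1360.0 CPM in KO and 1322, 1283 and 1331 CPM in WT libraries. The 12 markers, Lyz2 among them, summed to 13850 to 14560 CPM in KO and 16820 to 18530 CPM in WT libraries. Of the 12, 1 was called higher (Itgam) and 1 lower (Lyz2), beside 0.301% and 0.163% of all tested genes. Their median log2 fold change was 0.0089. Neutrophil and granulocyte precursor markers summed to 167 to 266 CPM in KO and 88.7 to 118 CPM in WT libraries. The 6 of the 13 markers that were tested each had a positive log2 fold change, with a median of 1.10, and of 1.17 in the other 6 conditions together. Of them 2 (Ngp and Ltf) were called higher, beside 0.301% of all tested genes, and 4 were higher at an unadjusted p under 0.05. Camp was at 1.14, 4.05 and 1.95 CPM in KO and 0, 0.206 and 0.743 CPM in WT libraries, and Mpo at 8.35, 7.29 and 3.46 CPM in KO and 1.43, 2.47 and 4.64 CPM in WT libraries. Ly6g was at 0 in all 6 libraries and Elane, Prtn3, Ctsg and Retnlg were below 1 CPM in each. Dendritic cell markers summed to 128 to 161 CPM in KO and 109.5 to 124 CPM in WT libraries. Most of this sum was Itgax, given below, and Bst2, at 47.8, 71.1 and 75.7 CPM in KO and 60.1, 71.5 and 67.8 CPM in WT libraries. Bst2 overlapped between the genotypes, and each other listed dendritic cell marker was at most 3.16 CPM. Mast cell and basophil markers summed to 11.8 to 16.01 CPM in KO and 7.62 to 11.1 CPM in WT libraries. Of 6 tested dendritic cell markers 4 had a positive log2 fold change, with a median of 0.61, and 1, Itgax, was called higher. B cell, T or NK cell and erythroid lists summed to at most 52.5 CPM in any of the 6 libraries, and the genotypes overlapped. In such bulk libraries fewer cells of a type and less RNA per cell cannot be told apart. The part of KO libraries 1 and 2 in the results was not tested beyond the fits without these libraries given here. The part of the granulocyte, dendritic cell and mast cell markers was not tested.

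After 2 h of LPS, 54 of 11624 genes (0.465% of those tested) differed between the genotypes at an adjusted p under 0.05. Of these, 35 (0.301%) were higher and 19 (0.163%) lower in KO libraries. The changes were mostly small: 43 of the 54 were under 2-fold, and of the 11 larger ones 10 were higher in KO. The genes higher in KO were led by lysozyme 1 and other granule proteins, the acyl-CoA synthetase Acsl1, the chemokine Ccl5, histone genes and antigen presentation genes. Those lower in KO were led by Lyz2, the macrophage survival factor Cd5l, the stress cytokine Gdf15 and the immediate early gene Fos. In all 54 the 3 KO and the 3 WT libraries did not overlap, as was so for 7.03% of all tested genes in the higher and 5.78% in the lower direction. At an unadjusted p under 0.05, 1342 genes differed.

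**Figure D1:**
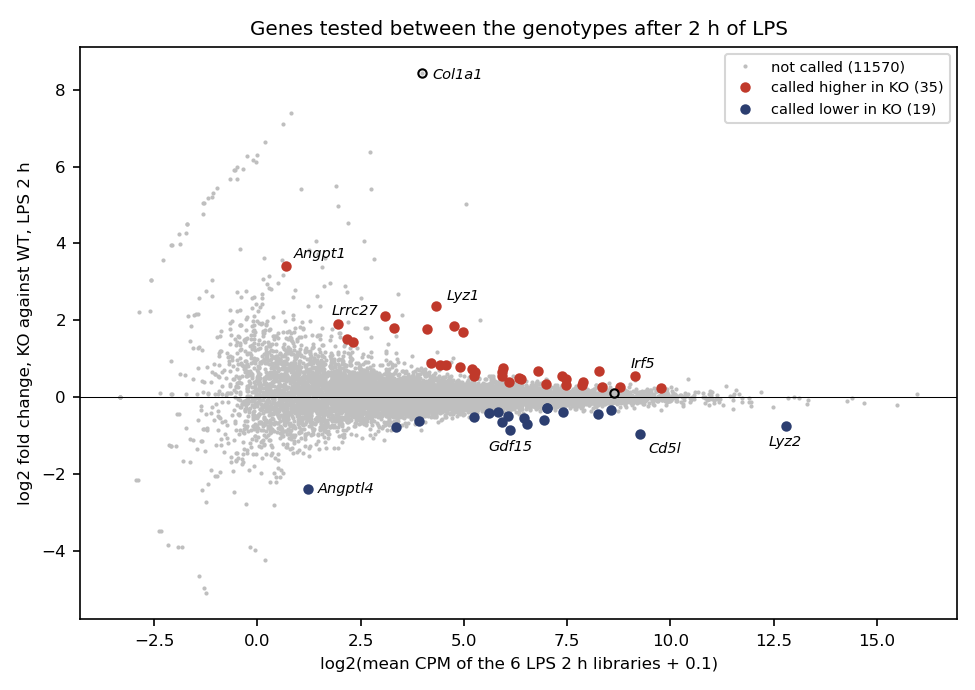
Log2 fold change between KO and WT after 2 h of LPS (y axis) against the mean level of each of the 11624 genes in the 6 libraries (x axis, log2 scale), with the 35 genes called higher in red, the 19 called lower in blue and the rest in grey. Most called genes lie within 1 log2 unit of 0. Irf5 and Col1a1, circled, were not called, and Col1a1 owes its high position to KO library 2.

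The number called depended on the fit and on the number of libraries. Fitted without the other 36 libraries, the 6 libraries gave 23 calls, of which 19 were among the 54. With any 1 library left out the count was 36 to 51, and it was lowest, at 36, without WT library 2 and without WT library 3. Without KO library 1 the count was 50 genes, of which 30 were among the 54, and without KO library 2 it was 47, of which 29 were. With both left out, an alternative chosen after the data were seen that leaves 1 KO library whose spread is taken from the other groups, 5 genes were called, all among the 54: Lyz1, Lrrc27, Lyz2, Fnip2 and Cd300lb. Over the 6 fits that each left out 1 library, 18 of the 54 kept their call every time. The 10 higher ones were Lyz1, Lrrc27, Acsl1, Lcn2, Ngp, Ltf, Chil3, Ccnd3, Ccl5 and Hist2h2ac, and the 8 lower ones were Lyz2, Cd5l, Gdf15, Fnip2, Id2, Fos, Slc40a1 and Arhgap19. The other 36 lost their call in at least 1 of these fits, and none of the 54 changed sign.

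**Figure D2:**
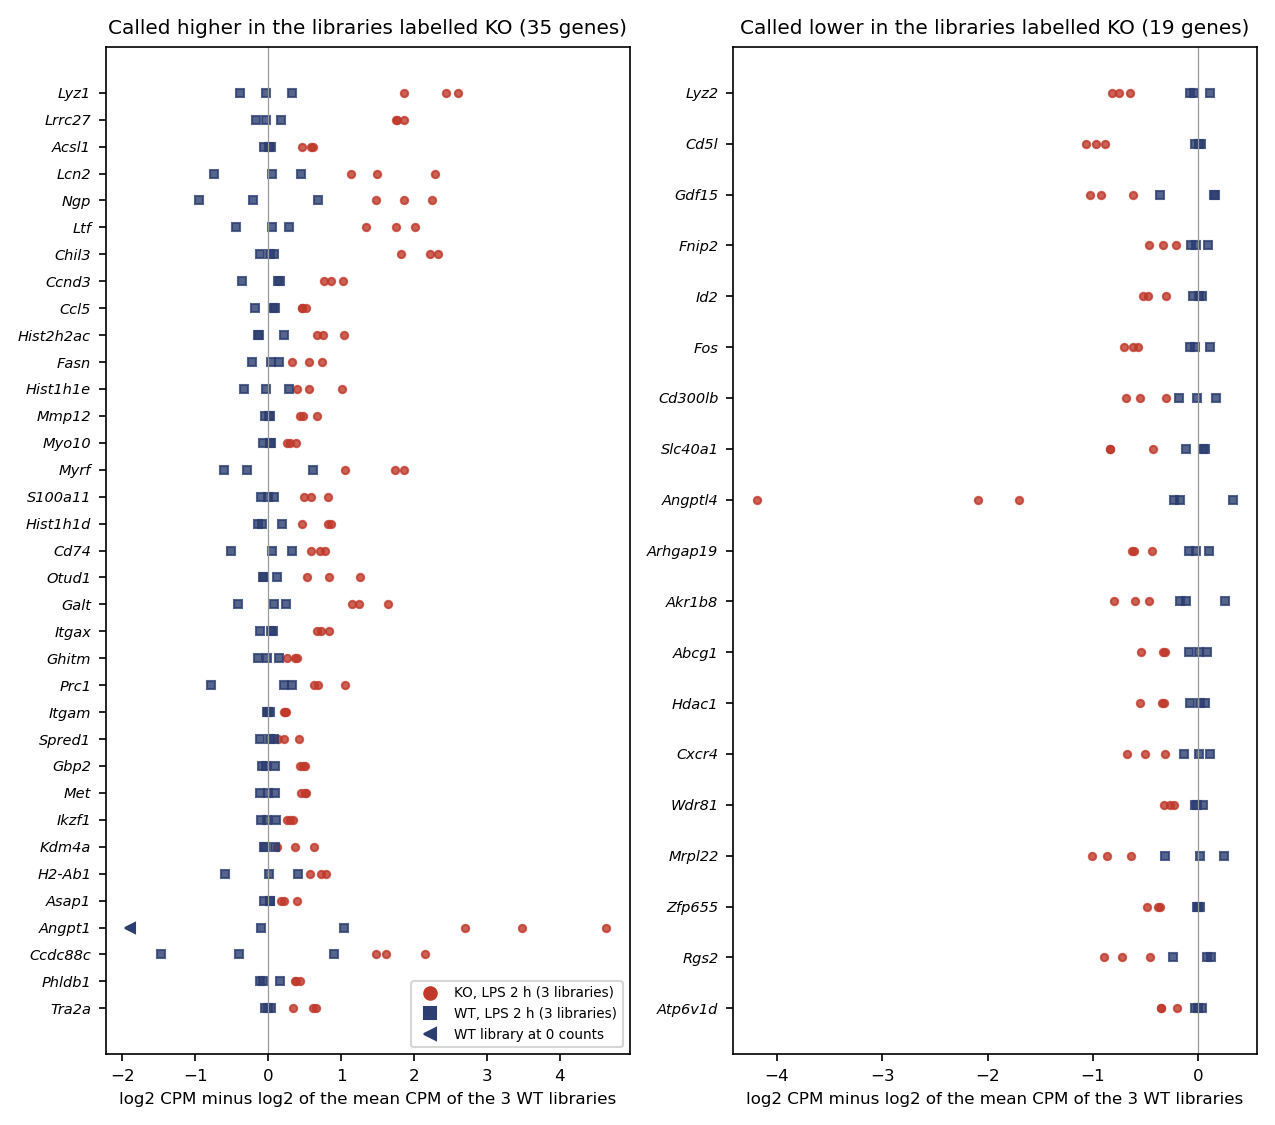
Level of each called gene in each of the 6 libraries, as log2 CPM minus the log2 of the mean WT CPM (x axis), for the 35 genes higher (left) and the 19 lower (right) in KO libraries, ordered by p-value. Red circles are KO and blue squares WT libraries, and a triangle marks a WT library with no count of Angpt1. In each gene the red and blue points do not overlap, while their distance is often under 1 log2 unit.

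Granule proteins, secreted antimicrobial proteins that are abundant in neutrophils and partly also made by macrophages, had the highest median change of the pathway lists. Of 15 tested members 5 were higher and 1, Lyz2, lower, beside 0.301% and 0.163% of all tested genes. Their median log2 fold change was 1.03 against 0.0039 over all tested genes. In the other 6 conditions together the median of the same 15 genes was 0.90. Lyz1, a lysozyme whose gene lies beside Lyz2 on chromosome 10 (117287797 to 117292868, minus strand, mm10), stood at 23.9, 35.5 and 40.01 CPM in the KO libraries and 6.44, 8.22 and 5.01 CPM in the WT libraries. KO levels were 5.17-fold higher (log2 fold change 2.37 ± 0.20, adjusted p = 8.6e-12). Chil3, a chitinase-like lectin, stood at 14.4, 15.6 and 11.03 CPM in the KO libraries and 2.86, 3.29 and 3.16 CPM in the WT libraries, 4.33-fold higher (log2 fold change 2.12 ± 0.38, adjusted p = 0.0012). Ngp, a neutrophil granule protein, stood at 41.8, 54.7 and 32.2 CPM in the KO libraries and 10.02, 5.96 and 18.6 CPM in the WT libraries (log2 fold change 1.86 ± 0.32, adjusted p = 6.2e-04). These are low levels, and both genotypes varied more than 1.5 times among their own libraries. Lcn2, which binds bacterial siderophores, stood at 17.5, 38.5 and 22.3 CPM in the KO libraries and 8.23, 4.73 and 10.8 CPM in the WT libraries (log2 fold change 1.77 ± 0.30, adjusted p = 5.6e-04). Ltf, the iron-binding lactoferrin, stood at 49.4, 59.4 and 36.98 CPM in the KO libraries and 10.7, 17.9 and 15.2 CPM in the WT libraries (log2 fold change 1.69 ± 0.29, adjusted p = 8.2e-04). In these 5 genes each KO library was above each WT library, and none lost its call with any 1 library left out. Lcn2, Ngp and Ltf were highest in KO library 2, and without that library their log2 fold changes were 1.35, 1.62 and 1.49. S100a8 and S100a9, the calprotectin subunits, overlapped between the genotypes, with S100a9 at 13.3, 60.2 and 30.3 CPM in KO and 21.1, 14.4 and 19.5 CPM in WT libraries (adjusted p = 0.14).

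Lyz1 and Lyz2 are close paralogs that differed between the genotypes in opposite directions. Their coding sequences are shown to let the shared part be seen. In the GENCODE M21 transcripts both coding sequences are 447 bases long, differ at 22 bases and are 95.1% identical. Over whole transcripts, 2.06% of the 100-base windows of Lyz1 also occur in Lyz2, so reads from the coding part could be split between the genes while most windows tell them apart. Capitals mark the 14 bases that differ within the first 150 coding bases.
Lyz1: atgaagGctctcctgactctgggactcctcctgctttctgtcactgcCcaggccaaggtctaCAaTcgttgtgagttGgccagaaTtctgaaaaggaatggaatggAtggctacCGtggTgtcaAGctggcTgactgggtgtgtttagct
Lyz2: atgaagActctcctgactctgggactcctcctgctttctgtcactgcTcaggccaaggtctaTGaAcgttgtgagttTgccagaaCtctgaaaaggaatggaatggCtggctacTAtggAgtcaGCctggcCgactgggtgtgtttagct

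Several genes of macrophage receptors, secreted and surface proteins were called lower in KO libraries, while Itgax and Itgam, given below, were called higher. Of 19 tested scavenger and resident macrophage receptor genes none was called higher and 2 were lower, beside 0.301% and 0.163% of all tested genes. Their median was -0.20, and -0.18 in the other 6 conditions together. Cd5l, a secreted protein that supports macrophage survival and is typical of tissue macrophages, stood at 391, 416 and 443 CPM in the KO libraries and 832, 819 and 799.7 CPM in the WT libraries. The genotypes were far apart relative to their spread (log2 fold change -0.97 ± 0.13, adjusted p = 7.6e-06). Slc40a1, the iron exporter ferroportin, stood at 84.3, 63.4 and 63.4 CPM in the KO libraries and 117, 119 and 105 CPM in the WT libraries (log2 fold change -0.71 ± 0.14, adjusted p = 0.0035). The scavenger receptors Cd36 and Mrc1 and the receptor Stab1 were not called, with Cd36 at 1663, 1832 and 1978 CPM in the KO libraries and 2023, 2307 and 2038 CPM in the WT libraries (adjusted p = 0.22). Cd300lb, an activating immune receptor, stood at 30.4, 36.1 and 27.7 CPM in the KO libraries and 39.4, 50.4 and 44.4 CPM in the WT libraries (log2 fold change -0.52 ± 0.10, adjusted p = 0.0028). It was not called without KO library 3 or without WT library 2, with log2 fold changes from -0.65 to -0.42 over the fits without 1 library. Cxcr4, the receptor of the chemokine CXCL12, stood at 55.4, 49.4 and 63.1 CPM in the KO libraries and 79.4, 85.3 and 71.9 CPM in the WT libraries (log2 fold change -0.49 ± 0.12, adjusted p = 0.034), and lost its call in 4 of these 6 fits.

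Antigen presentation genes were among those higher in KO libraries. Of 17 tested MHC class II and costimulation genes 3 were higher and none lower, beside 0.301% and 0.163% of all tested genes. In this list 15 had a positive log2 fold change, with a median of 0.23, and of 0.078 in the other 6 conditions together. Cd74, the invariant chain that guides MHC class II molecules, stood at 358, 408 and 386 CPM in the KO libraries and 166, 298 and 246 CPM in the WT libraries (log2 fold change 0.68 ± 0.15, adjusted p = 0.020). H2-Ab1, an MHC class II chain, stood at 125, 146 and 139 CPM in the KO libraries and 55.8, 111 and 84.9 CPM in the WT libraries (log2 fold change 0.67 ± 0.16, adjusted p = 0.034). In both genes WT library 1 was lowest. The genotype contrasts of Cd74 and H2-Ab1 varied between conditions. They were 1.09 and 1.215 at 0 h (adjusted p = 8.8e-07 and 2.8e-07). In control medium at 2 h they were -0.06 and -0.21 and not called. Itgax (CD11c) stood at 72.5, 81.5 and 75.5 CPM in the KO libraries and 46.9, 47.9 and 42.3 CPM in the WT libraries (log2 fold change 0.75 ± 0.17, adjusted p = 0.024). Its level varied little within each genotype. All 3 lost their calls when KO library 2 was left out (log2 fold changes 0.63, 0.62 and 0.70). The same held for leaving out KO library 3, WT library 1 or WT library 3. Ctss, Cd83, Cd274 and Cd40, the other members with the highest levels, were not called (adjusted p from 0.52 to 0.94). Mmp12 and Itgam, genes of the matrix and the cell surface, were higher in KO libraries as well. Mmp12, the macrophage elastase, stood at 623, 638 and 733 CPM in the KO libraries and 466, 463 and 445 CPM in the WT libraries (log2 fold change 0.54 ± 0.11, adjusted p = 0.011), and lost its call without KO library 3 or WT library 3. Itgam (CD11b), a chain of the complement receptor CR3, stood at 951, 937 and 956 CPM in the KO libraries and 794, 804 and 819 CPM in the WT libraries (log2 fold change 0.23 ± 0.05, adjusted p = 0.029), a 1.18-fold change whose call was lost in all 6 fits without 1 library.

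The inflammatory response itself was induced in both genotypes, and few of its genes passed the test between them. Tnf stood at 1976, 1822 and 1920 CPM in the KO libraries and 2023, 1917 and 2023 CPM in the WT libraries (log2 fold change -0.06 ± 0.07, adjusted p = 0.80), after 75.96 ± 7.17 and 72.9 ± 3.65 CPM (mean ± SD, n = 3) in the control groups at 2 h. Il6 stood at 35.7, 43.4 and 41.5 CPM in the KO libraries and 34.4, 36.8 and 45.9 CPM in the WT libraries (log2 fold change 0.04 ± 0.28, adjusted p = 0.97). Il12b, the p40 chain of IL-12 and IL-23, stood at 84.3, 61.2 and 73.96 CPM in the KO libraries and 72.98, 56.5 and 57.02 CPM in the WT libraries (log2 fold change 0.24 ± 0.24, adjusted p = 0.76). Values of the genotypes overlapped for all 3 of these genes, whose known regulation by IRF5 is described above. Il1b stood at 875, 839 and 823 CPM in the KO libraries and 686, 832 and 651 CPM in the WT libraries (adjusted p = 0.42). Il10, an anti-inflammatory cytokine, stood at 22.8, 24.3 and 24 CPM in the KO libraries and 28.98, 39.5 and 31.02 CPM in the WT libraries (log2 fold change -0.49 ± 0.24, adjusted p = 0.42), each KO library below each WT library without passing the test. Ifnb1, interferon beta, stood at 12.2, 20.5 and 19.5 CPM in the KO libraries and 19.3, 31.9 and 27.7 CPM in the WT libraries (adjusted p = 0.56), and Cxcl10, an interferon-inducible chemokine, at 588, 609 and 646 CPM in the KO libraries and 528, 663 and 534 CPM in the WT libraries (adjusted p = 0.74). Nos2, the inducible nitric oxide synthase, was low at 5.32, 10.5 and 12.98 CPM in the KO libraries and 6.797, 6.99 and 3.34 CPM in the WT libraries (adjusted p = 0.38). Acod1, which makes itaconate, stood at 3033, 2764 and 2824 CPM in the KO libraries and 2350, 2504 and 2239 CPM in the WT libraries (log2 fold change 0.28 ± 0.12, adjusted p = 0.31), and was not called although the genotypes did not overlap. Of 20 tested inflammatory cytokine genes 1, Gdf15, was called. Of 20 CC and CXC chemokine genes 1, Ccl5, was called. Over all tested genes 0.465% were called. None of the 22 tested genes for TLR4 and its adaptors, the 15 for NF-kappaB subunits and inhibitors, the 8 of the IRF family or the 25 feedback regulators of LPS signalling passed the edgeR test, and at an unadjusted p under 0.05 these lists held 5, 4, 2 and 7 genes, in each a larger share than the 11.5% of all tested genes at this p. DESeq2 called 1 gene of the NF-kappaB list and none of the other 3. With no filter on low counts edgeR called 1 gene each of the TLR4, NF-kappaB and feedback lists, and without KO library 1 it called 1 of the feedback list.

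Single genes of the cytokine, chemokine, immediate early and interferon lists did separate the genotypes. Gdf15, a cytokine of the stress response, stood at 57.3, 46.6 and 43.2 CPM in the KO libraries and 98.4, 68.6 and 98.1 CPM in the WT libraries, 1.82-fold lower in KO (log2 fold change -0.86 ± 0.15, adjusted p = 0.0012). Gdf15 rose with LPS in both genotypes, by 1.55 ± 0.15 in WT and 0.77 ± 0.16 in KO on the log2 scale against control medium at 2 h. Ccl5, a chemokine for T cells and monocytes, stood at 202, 203 and 210.4 CPM in the KO libraries and 129.5, 157 and 154 CPM in the WT libraries, 1.38-fold higher in KO (log2 fold change 0.47 ± 0.09, adjusted p = 0.0014). Fos, a subunit of the transcription factor AP-1, stood at 47.8, 45.2 and 49.3 CPM in the KO libraries and 69.4, 79.3 and 71.7 CPM in the WT libraries, 1.56-fold lower (log2 fold change -0.64 ± 0.12, adjusted p = 0.0025). Against control medium at 2 h Fos was not raised by LPS. It changed by -0.09 ± 0.11 in WT (adjusted p = 0.61) and by -0.86 ± 0.12 in KO (adjusted p = 3.5e-08) on the log2 scale. Fos was the only one of 24 tested immediate early genes to be called, beside 0.465% of all tested genes. Of the 24, 17 had a negative log2 fold change, with a median of -0.11. Atf3 stood at 281, 277 and 253 CPM in the KO libraries and 293, 302 and 339 CPM in the WT libraries without passing the test (log2 fold change -0.21 ± 0.07, adjusted p = 0.17), and Junb and Klf6 overlapped. Gbp2, an interferon-inducible GTPase, stood at 95.3, 99.9 and 97.8 CPM in the KO libraries and 68.7, 75.01 and 66.3 CPM in the WT libraries (log2 fold change 0.48 ± 0.12, adjusted p = 0.034), and kept its call only without KO library 1 among the 6 fits without 1 library, with log2 fold changes from 0.44 to 0.54. Gbp2 was the only called gene of 44 tested type I interferon and interferon-stimulated genes, beside 0.465% of all tested genes. In that list 41 of 44 log2 fold changes were positive, 14 genes were higher and none lower at an unadjusted p under 0.05, and the median was 0.19 against 0.0039 over all tested genes. With 1 library left out the positive ones numbered 36 to 41 and the median was 0.15 to 0.24, and with KO libraries 1 and 2 both left out they were 42 and 0.30. In the other 6 conditions together the median of the same 44 genes was -0.0042. Rsad2, Parp14, Ifit1 and Ifih1, the other members with the highest CPM, were not called, with Rsad2 at 1036, 1125 and 1164 CPM in the KO libraries and 949, 1090 and 941 CPM in the WT libraries (adjusted p = 0.58).

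**Figure D3:**
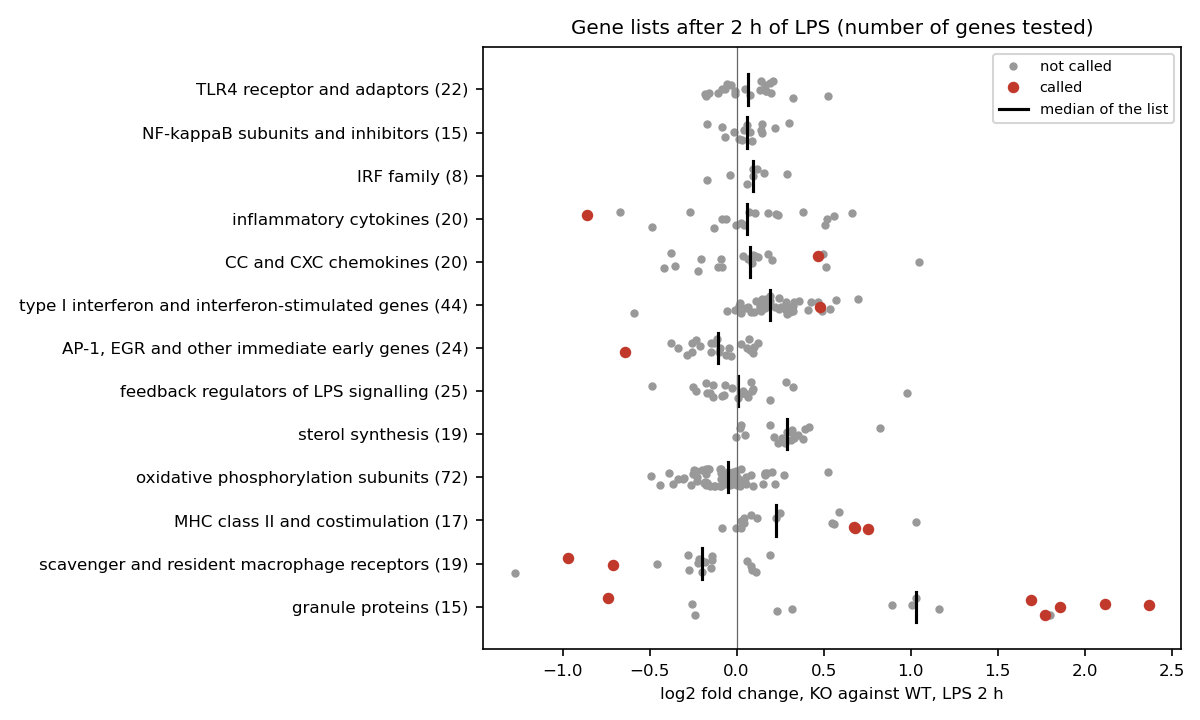
Log2 fold change between KO and WT after 2 h of LPS (x axis) for the tested genes of 13 lists, with the number tested in brackets, called genes in red and the list's median as a black bar. The TLR4, NF-kappaB, IRF and feedback lists lie around 0 with no called gene in this fit. Of the lists shown, granule proteins have the highest median, 1.03, and scavenger receptors a negative one, -0.20.

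Genes of lipid metabolism were called in both directions. Acsl1, which activates long-chain fatty acids and is itself induced by LPS, stood at 207, 203 and 186 CPM in the KO libraries and 136, 138 and 129.6 CPM in the WT libraries, 1.48-fold higher (log2 fold change 0.56 ± 0.09, adjusted p = 5.4e-04). Fasn, the fatty acid synthase, stood at 82, 72.3 and 61.2 CPM in the KO libraries and 50.4, 41.9 and 54.2 CPM in the WT libraries (log2 fold change 0.54 ± 0.12, adjusted p = 0.011). It lost its call without KO library 1, KO library 2 or WT library 2, with log2 fold changes from 0.43 to 0.65. Abcg1, which exports cholesterol, stood at 131, 153 and 151 CPM in the KO libraries and 202, 191 and 179.6 CPM in the WT libraries (log2 fold change -0.38 ± 0.08, adjusted p = 0.0090). It lost its call without KO library 1 or WT library 1, with log2 fold changes from -0.43 to -0.33. Angptl4, a secreted inhibitor of lipoprotein lipase, was measured with few counts, 3, 1 and 4 in KO and 13, 16 and 17 in WT libraries (log2 fold change -2.39 ± 0.47, adjusted p = 0.0038). Without KO library 2, which held 1 count, its log2 fold change was -1.86 and the call was lost (adjusted p = 0.078). In the list of fatty acid uptake, activation and lipid droplet genes 1 was higher (Acsl1) and 1 lower (Angptl4) of 23 tested, with a median of -0.01. Over all tested genes 0.301% were called higher and 0.163% lower. Lpl, Cd36, Fabp5 and Plin2 were not called. The 19 tested sterol synthesis genes held no call in edgeR or DESeq2, with 6 at an unadjusted p under 0.05. Of their log2 fold changes 18 were positive, with a median of 0.29, and with KO libraries 1 and 2 both left out 15 were positive, with a median of 0.15.

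Among the other genes called higher were 3 histone genes and 2 genes with roles in cell division, Ccnd3 and Prc1, which are put side by side here after their values were seen. Hist2h2ac, a replication-dependent histone H2A gene, stood at 31.5, 24.3 and 25.9 CPM in the KO libraries and 17.9, 13.98 and 14.1 CPM in the WT libraries (log2 fold change 0.84 ± 0.16, adjusted p = 0.0025). Hist1h1e, a linker histone gene, stood at 93.4, 68.5 and 60.98 CPM in the KO libraries and 45.4, 56.5 and 36.96 CPM in the WT libraries (log2 fold change 0.65 ± 0.14, adjusted p = 0.011), and Hist1h1d, another, at 50.1, 38.1 and 48.4 CPM in the KO libraries and 31.5, 24.9 and 26 CPM in the WT libraries (log2 fold change 0.74 ± 0.16, adjusted p = 0.015). Hist1h1e lost its call without KO library 1 or WT library 3, and Hist1h1d in 4 of the 6 fits without 1 library. At 0 h Hist2h2ac and Hist1h1d were called lower in KO (log2 fold changes -0.49 and -0.43, adjusted p = 0.0056 and 0.014). With palmitate at 2 h both were called higher (0.61 and 0.68, adjusted p = 0.020 and 0.0047). Hist1h1e was called in neither (-0.33 and 0.49). All histone genes together, replacement variants included, took 0.163% to 0.180% of counts in KO and 0.146% to 0.154% in WT libraries. The share of replication-dependent histone genes alone was not computed. The RNA was depleted of ribosomal RNA and not selected for poly(A), so histone messages without a poly(A) tail were in the libraries. Ccnd3, the G1 cyclin D3, stood at 33.8, 29.99 and 28.1 CPM in the KO libraries and 12.9, 18.5 and 18.2 CPM in the WT libraries, 1.78-fold higher (log2 fold change 0.83 ± 0.15, adjusted p = 0.0014). Prc1, needed to divide the cell, stood at 45.5, 33.6 and 35.03 CPM in the KO libraries and 25.4, 12.7 and 27.3 CPM in the WT libraries (log2 fold change 0.80 ± 0.18, adjusted p = 0.027), and lost its call without KO library 1 or WT library 2, with log2 fold changes from 0.50 to 1.05. None of the 18 genes of the cell cycle marker list was called, 3 were higher and none lower at an unadjusted p under 0.05, and the list summed to 1414 to 1543 CPM in KO and 1158 to 1436 CPM in WT libraries.

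Genes that the study singled out were called in 4 of 6 cases, beside 0.465% of all tested genes. The study chose genes that differed in BMDMs and in adipose tissue macrophages and were bound by IRF5 in public ChIP-seq data. Because the choice drew in part on these same libraries, the calls are no independent evidence. Lrrc27, a leucine-rich repeat gene on chromosome 7 that overlaps Stk32c on the other strand, stood at 14.8, 16.01 and 14.9 CPM in the KO libraries and 4.29, 4.93 and 3.9 CPM in the WT libraries, 3.48-fold higher (log2 fold change 1.80 ± 0.24, adjusted p = 7.1e-06). Ghitm, a protein of the inner mitochondrial membrane, stood at 145, 135 and 148 CPM in the KO libraries and 102, 125 and 111 CPM in the WT libraries (log2 fold change 0.33 ± 0.08, adjusted p = 0.024). It lost its call in 4 of the 6 fits without 1 library, with log2 fold changes from 0.27 to 0.41. Ghitm was the 1 gene called of 24 tested genes of inner membrane structure. Fnip2, a partner of folliculin in AMPK and mTORC1 signalling, stood at 365, 336 and 306 CPM in the KO libraries and 402, 417 and 451 CPM in the WT libraries (log2 fold change -0.34 ± 0.06, adjusted p = 0.0014). Abcg1 is given above. Atf5, a transcription factor of the mitochondrial stress response, stood at 21.6, 31.8 and 35.03 CPM in the KO libraries and 39.4, 55.1 and 38.3 CPM in the WT libraries and was not called (log2 fold change -0.55 ± 0.15, adjusted p = 0.074), although it was without KO library 3 and without WT library 3 (log2 fold changes -0.69 and -0.67). Syce2, a meiotic gene, overlapped (log2 fold change -0.11 ± 0.34, adjusted p = 0.94). None of the 72 tested oxidative phosphorylation genes was called by edgeR or DESeq2, with 6 at an unadjusted p under 0.05.

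The other called genes complete the 54. Among the 15 with the smallest p-values in each direction, Myo10, a myosin of cell protrusions, stood at 253, 267 and 247 CPM in the KO libraries and 209.6, 197 and 211 CPM in the WT libraries (log2 fold change 0.32), and Myrf, a membrane-bound transcription factor, at 7.97, 7.29 and 4.54 CPM in the KO libraries and 1.79, 1.44 and 3.34 CPM in the WT libraries (log2 fold change 1.5). Id2, an inhibitor of bHLH transcription factors, stood at 280.2, 241 and 249.6 CPM in the KO libraries and 356, 335 and 349 CPM in the WT libraries (log2 fold change -0.44). Arhgap19, a GTPase-activating protein, stood at 67.2, 76.4 and 68.1 CPM in the KO libraries and 111, 97.8 and 102 CPM in the WT libraries (log2 fold change -0.54). Akr1b8, an aldo-keto reductase, stood at 86.2, 98.5 and 108 CPM in the KO libraries and 138, 178 and 133 CPM in the WT libraries (log2 fold change -0.61). It was the only called gene of 66 tested within 10 Mb of Irf5 (1.52%), and Lyz1 the only one of 65 within 10 Mb of Lyz2 (1.54%). Over all tested genes 0.465% were called. Hdac1, a histone deacetylase, stood at 43.7, 50.5 and 51.2 CPM in the KO libraries and 66.9, 64.7 and 60.7 CPM in the WT libraries (log2 fold change -0.38), and Wdr81, a protein of endosome sorting, at 117, 120.3 and 113 CPM in the KO libraries and 146, 141 and 138 CPM in the WT libraries (log2 fold change -0.27). Of these 7 genes Id2 and Arhgap19 kept their calls with each library left out, while Myo10, Myrf, Akr1b8, Hdac1 and Wdr81 did not.

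The remaining higher genes had log2 fold changes of 0.65 (S100a11), 0.88 (Otud1), 1.42 (Galt), 0.26 (Spred1), 0.49 (Met), 0.31 (Ikzf1), 0.40 (Kdm4a), 0.26 (Asap1), 1.90 (Ccdc88c), 0.40 (Phldb1) and 0.54 (Tra2a). Angpt1, a ligand of the endothelial receptor TIE2, had 13, 11 and 6 counts in KO and 0, 2 and 1 in WT libraries. The remaining lower genes had log2 fold changes of -0.77 (Mrpl22), -0.41 (Zfp655), -0.63 (Rgs2) and -0.30 (Atp6v1d). All 16 of these lost their call in at least 3 of the 6 fits without 1 library. Rgs2, Tra2a and Atp6v1d lay just inside the threshold (adjusted p = 0.048 for each), and Clec4e and Mrpl36 just outside (0.052 for each).

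The second question was whether the genotypes differed in the same way in the other conditions. In the other 36 libraries, which share the fit's estimate of spread with the comparison at LPS 2 h but do not enter its group means, the mean genotype contrast of the other 6 conditions was called for 1147 genes (9.87% of those tested). It is not given whether these cultures came from the same mice. Of the 54 genes, 46 (85.2%) had the same direction there, against 56.8% of all tested genes, and 25 were called in that direction. Fos was the 1 gene called in the opposite direction, at 0.17 ± 0.05. Lyz1, Lrrc27, Lyz2, Cd5l and Itgax had contrasts of 1.99, 2.17, -0.86, -0.72 and 0.68 in the other conditions, beside 2.37, 1.80, -0.74, -0.97 and 0.75 at LPS 2 h. Lyz1, for example, was at 37.3 ± 2.14 CPM in KO and 8.91 ± 0.702 CPM in WT after 2 h of control medium (mean ± SD, n = 3). Of the 54 genes 31 were called in the same direction in no other single condition and 23 in at least 1. Over the 11624 tested these counts, again of calls in the same direction, were 10675 and 949.

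**Figure D4:**
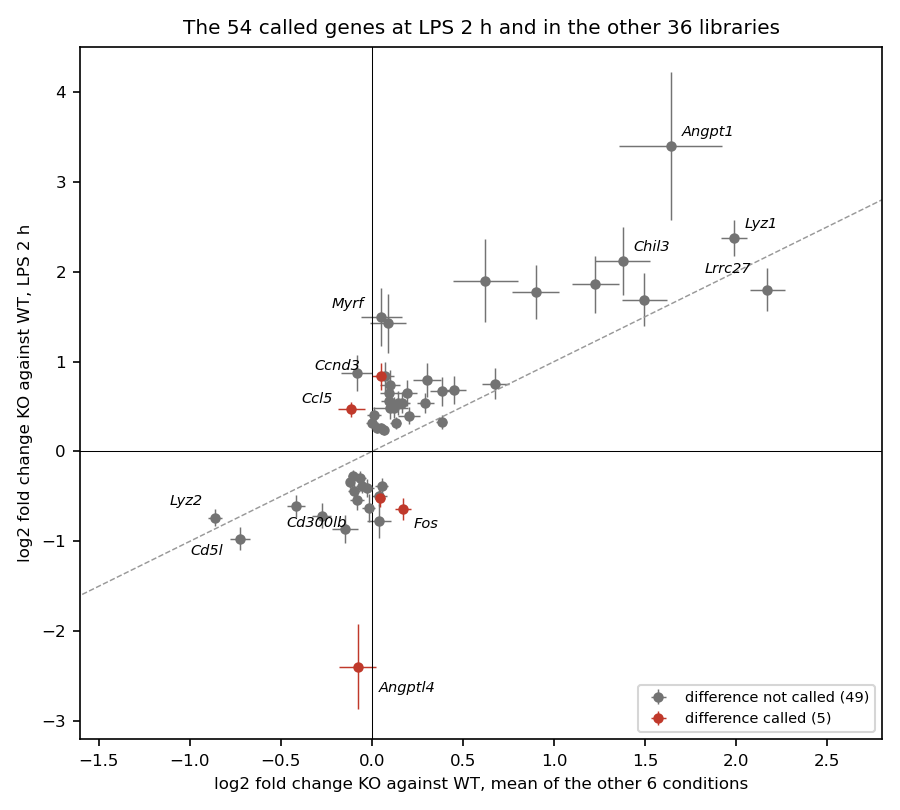
Log2 fold changes between KO and WT of the 54 genes, at LPS 2 h (y axis) and as the mean of the other 6 conditions (x axis). Error bars are approximate standard errors from edgeR's F statistic. The dashed line marks equal values, and the 5 genes whose difference was called are red. Lyz1, Lrrc27, Lyz2 and Cd5l lie near the line, while Fos, Cd300lb, Ccl5, Ccnd3 and Angptl4 lie near 0 on the x axis.

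A test of the difference between LPS 2 h and the other 6 conditions called 5 genes (0.043%), all among the 54. Fos differed by -0.81 ± 0.13 (adjusted p = 0.0013), with KO at 86.3 ± 9.28 and WT at 78.6 ± 6.85 CPM in control medium at 2 h. Cd300lb differed by -0.56 ± 0.10 (adjusted p = 0.011), and Ccl5 by 0.58 ± 0.11 (adjusted p = 0.019). Ccnd3 differed by 0.78 ± 0.16 (adjusted p = 0.035). Its WT mean was 16.5 ± 3.16 CPM at LPS 2 h and 29.9 ± 1.48 CPM in control medium at 2 h, while its KO means were 30.6 ± 2.89 and 29.8 ± 2.03 CPM. Angptl4 differed by -2.31 ± 0.49 (adjusted p = 0.042). The number called by this test was 2 without KO library 2, 2 without KO library 3, 2 without WT library 1, 14 without WT library 2 and 1 with KO libraries 1 and 2 both left out.

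Against LPS at 24 h the genotype contrast differed for 27 genes (0.232%), 8 with a higher and 19 with a lower value at 2 h. Lcn2 had a contrast of 1.77 at 2 h and -0.16 at 24 h, S100a11 of 0.65 and -0.34, and Cd5l of -0.97 and 0.01. Ccl5 was higher in KO at 2 h and stood at 1793 ± 46.6 CPM in KO and 1984 ± 77.4 CPM in WT at 24 h, where its contrast was -0.15. Left out in turn, KO libraries 2 and 3 and WT libraries 1 and 3 brought the 27 to 13, 10, 11 and 13, and with KO libraries 1 and 2 both left out 8 genes were called.

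The response to LPS was also set against that of the matched controls in each genotype, a comparison that shares the 6 LPS libraries with the one between genotypes, so the values stand side by side only. Of all 11624 tested genes, LPS changed 2686 in WT (23.1%), 1628 raised and 1058 lowered. In KO it changed 2776 (23.9%), 1711 raised and 1065 lowered. Of the 35 genes higher in KO, LPS raised 14 and lowered 7 in WT, and raised 16 and lowered 2 in KO. Of the 19 lower genes it raised 2 and lowered 8 in WT, and raised 1 and lowered 13 in KO. Ccl5 rose by 3.84 in WT and 4.49 in KO on the log2 scale, and Acsl1 by 1.37 and 1.69. Fos changed by -0.09 and -0.86, and Ccnd3 by -0.82 and 0.02. The test of whether the LPS response differed between genotypes (the interaction with control medium at 2 h) called 0 genes (0%) in edgeR, with 810 at an unadjusted p under 0.05 and 1 called by DESeq2. Its smallest adjusted p was 0.20, for Fos (-0.77 ± 0.16), and the next genes included Hivep2 (0.85 ± 0.19) and Cd300lb (-0.52 ± 0.12). Without KO library 2 the edgeR test called 3 genes.

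**Figure D5:**
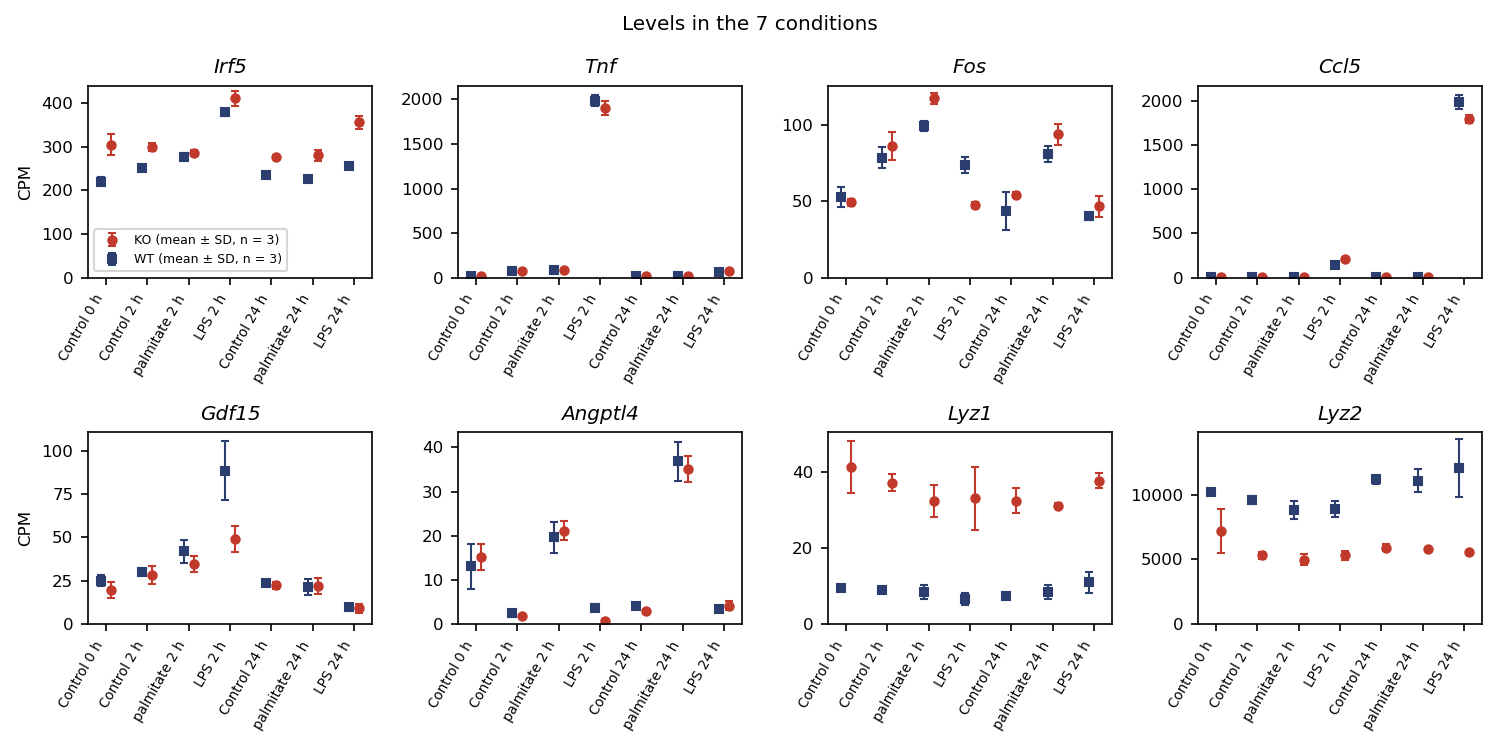
Level of 8 genes in CPM (y axis, from 0) in the 7 conditions for KO (red circles) and WT (blue squares), each the mean of 3 libraries with its SD. Lyz1 and Lyz2 are apart in each condition. Fos is lower in KO at LPS 2 h, 47.4 against 73.5 CPM, and not in the other conditions with LPS or palmitate, and Tnf at LPS 2 h is at 1906 CPM in KO and 1988 CPM in WT.

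RefSeq promoters (GRCm38.p6, 250 bases before to 50 after a start site) were found for 25 of the 35 higher and 15 of the 19 lower genes and for 8900 of the 11624 tested. The IRF motif (GAAA, any 2 bases, GAAA), searched like the others on both strands, was in 4% of promoters of higher genes, 6.67% of lower genes and 4.04% of all tested genes, which is 1, 1 and 360 genes. The NF-kappaB motif (GGGA, any base, TTTCC) was in none of the called genes and in 0.573% of all tested, and the ATF4 motif (TGATG, any base, AA) in none of the higher, 6.67% of the lower and 2.87% of all tested. The IRF motif does not overlap the other motifs in the promoters shown. The 3 called genes whose promoters hold a searched motif are Gbp2 (promoter chr3:142620413-142620712, plus strand) and Atp6v1d (promoter chr12:78861589-78861888, minus strand), each with an IRF motif, and Cd5l (promoter chr3:87357631-87357930, plus strand), with an ATF4 motif. Their promoters are printed 5′ to 3′ with the motif in capitals, the IRF motifs being read on the opposite strand. A match is a description of these letters only.
Gbp2: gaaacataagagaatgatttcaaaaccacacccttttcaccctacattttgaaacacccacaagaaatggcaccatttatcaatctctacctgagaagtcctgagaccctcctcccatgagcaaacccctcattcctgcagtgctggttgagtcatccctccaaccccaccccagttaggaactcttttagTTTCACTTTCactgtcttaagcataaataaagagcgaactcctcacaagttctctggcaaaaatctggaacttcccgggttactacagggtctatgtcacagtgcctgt
Cd5l: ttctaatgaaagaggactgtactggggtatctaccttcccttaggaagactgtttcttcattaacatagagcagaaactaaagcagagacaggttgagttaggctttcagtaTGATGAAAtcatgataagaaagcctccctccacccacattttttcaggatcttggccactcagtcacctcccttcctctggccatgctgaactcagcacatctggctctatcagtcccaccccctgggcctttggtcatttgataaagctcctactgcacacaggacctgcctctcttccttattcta
Atp6v1d: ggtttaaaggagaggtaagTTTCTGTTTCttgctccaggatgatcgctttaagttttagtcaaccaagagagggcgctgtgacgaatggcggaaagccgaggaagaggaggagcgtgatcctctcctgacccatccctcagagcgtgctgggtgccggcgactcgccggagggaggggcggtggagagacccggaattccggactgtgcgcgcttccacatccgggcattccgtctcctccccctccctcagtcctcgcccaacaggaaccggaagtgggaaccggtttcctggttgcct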

How the data were processed

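RNA-seq counts of 42 libraries, 3 per genotype and condition, were deposited by the authors as one table of raw counts per gene. Per the study's methods, total RNA was depleted of ribosomal RNA, made into stranded libraries and aligned with STAR to mm10. The submitters' processing notes name fastp 0.19.11 and STAR 2.7.3a. The counting annotation and its strand setting are not given in the sources used here, so reads of overlapping genes may be shared. Symbols for 32620 of 37310 gene identifiers were taken from GENCODE M21. Genotype and condition came from the sample labels and matching column names, which carry no replicate number, so libraries are numbered in column order.

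Genes with low counts were removed (filterByExpr by group), which kept 11624 genes and 99.88% of counts. edgeR 4.0.16 (R 4.3.3) fitted TMM-scaled counts of all 42 libraries with 1 mean per group, and contrasts were tested with its quasi-likelihood F test, two-sided, with Benjamini-Hochberg adjustment over all genes tested. Genes were called at an adjusted p under 0.05. Each group mean and SD rests on 3 libraries. Standard errors and p-values use a spread estimated over all 42 libraries. The deepest of the 6 libraries held 6003042 counts and the shallowest 2848793, which limits genes with few counts. On counts simulated for this comparison with 200 changed genes among 11486 tested, 49.3% of 1.5-fold, 61.2% of 2-fold and 92.4% of 4-fold changes were recovered, and 6 of 141 calls were false. The simulated counts were independent, with the real library sizes and each gene's estimated spread. No simulated library had an unusual composition like that of KO libraries 1 and 2, so these rates may not hold for the measured counts.

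Named genes were the target and the Cre locus with their neighbours, 6 genes the study singled out, the 15 called genes per direction with the smallest adjusted p and at least 1 CPM, the called and highest members of the lists described, up to 5 genes per direction in the tests of differences, and 10 LPS response genes. Members and lists were chosen with earlier results of these data known. Alternatives were RLE scaling, no filter, only the libraries compared, DESeq2 1.42.0, the study's threshold and leaving out libraries.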

Additional observations from a re-analysis of the deposited data

Results flagged for a closer look

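Genotype contrasts that differed between conditions by a test of the difference itself (edgeR's quasi-likelihood test, Benjamini-Hochberg adjustment, 3 libraries per group) are given as values of the contrast at LPS 2 h minus the contrast elsewhere, on the log2 scale. Against the mean of the other 6 conditions the difference was -0.81 for Fos (adjusted p = 0.0013), -0.56 for Cd300lb (adjusted p = 0.011), 0.58 for Ccl5 (adjusted p = 0.019), 0.78 for Ccnd3 (adjusted p = 0.035) and -2.31 for Angptl4 (adjusted p = 0.042).

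Against LPS at 24 h, the 5 genes per direction with the smallest p-values were lower at 2 h for Fnip2 (-0.55), Tent5c (-0.81), Cd5l (-0.98), Cd300lb (-0.64) and Fos (-0.86), with adjusted p from 0.00096 to 0.0089. They were higher at 2 h for Lcn2 (1.94), Ccl5 (0.62), S100a11 (0.99), Tmem123 (0.48) and Hist2h2ac (0.93), with adjusted p from 0.0032 to 0.045. Fnip2 was lower in KO at 2 h (-0.34) and had a positive contrast at 24 h (0.20), and Tent5c, which was not called at 2 h (-0.32), had one of 0.49 at 24 h. The causes of these differences were not tested.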

How the results depend on the processing

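The 54 calls between genotypes at LPS 2 h became 49 under RLE scaling, 81 with DESeq2 and 36 to 51 with 1 library left out, with 49, 50 and at least 26 of the 54 among them. With no filter beyond 1 count 190 genes were called, in the fit of only the 6 libraries 23, by the study's threshold (unadjusted p under 0.05 and over 1 log2 unit) 244 in the edgeR fit and 249 in DESeq2, the tool of the study, and with KO libraries 1 and 2 both left out, added after the data were seen, 5. The interaction with control medium at 2 h gave 0 calls, 43 with no filter, 1 with DESeq2 and 0 to 3 with 1 library left out. The difference from LPS at 24 h gave 27, 67 with no filter, 3 with only the libraries compared, 50 with DESeq2, 8 without both KO libraries and 10 to 35 with 1 library left out. The difference from the other 6 conditions gave 5, 62 with no filter, 26 with DESeq2, 1 without both KO libraries and 2 to 14 with 1 library left out. The causes of these changes were not tested.

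In the fit of only the 6 libraries, members called fell to 0 in the interferon, LXR target and inner membrane lists, and to 1 each in the lipid droplet, study and macrophage lists. DESeq2 called 1 member each in the NF-kappaB, arginine, osmolyte transport and stromal lists, where edgeR called 0, and 2 each in the LXR target and integrated stress response lists. With 1 library left out, the log2 fold change of Syce2 ran from -0.82 to 0.14 and that of Il6 from -0.038 to 0.18, and neither was called. RLE scaling shifted the median log2 fold change of all genes by 0.005. No paired analysis was possible because the columns of the count table carry no replicate numbers. Depth limits genes with few counts, such as Angptl4 and Angpt1.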
